A study of Mus musculus with 2 samples.

Results

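Mir451a, Mir144 and Mir486 are the microRNA genes best known from red blood cells. They were taken here by their symbols in GENCODE annotation M21 from tables of 2202 microRNA genes, which gave 3 genes, 1 for each symbol. Their counts came from small RNA libraries made from the left cerebral cortex of 4-day-old female mice of the strain B6CASTF1/J, with no treatment or engineered allele named. The series has 1 group of 2 biological replicates, each a single library from an animal with its own number, under 1 shared donor record. There was thus no comparison of conditions, and all that is set side by side below is 1 library against the other, with no test. The labels read here do not state whether blood was washed out of the tissue.

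A microRNA is cut from a folded precursor, the hairpin, and guides an Argonaute protein to messenger RNAs that pair with its seed. In red cell precursors Mir144 and Mir451a are transcribed together under the factor GATA1, and miR-451a becomes a dominant microRNA of mature red cells, which keep it after the nucleus is lost. Most hairpins are cut by Drosha and then by Dicer. The Mir451a hairpin is cut by Drosha and then by the slicer Ago2 without Dicer, and its short stem is known to depend on the neighbouring Mir144 hairpin for efficient Drosha cutting. Mir486 arises inside Ank1, the gene of the red cell membrane protein ankyrin-1, and is known from muscle as well.

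The sequences that set Mir451a and Mir144 apart are given 5′ to 3′ from RefSeq on build GRCm38.p6, in which 2 of the 3 genes were matched. In the mature products, capitals mark the seed, bases 2 to 8.
miR-451a: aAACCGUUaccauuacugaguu
miR-144-5p: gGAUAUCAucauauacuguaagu
miR-144-3p: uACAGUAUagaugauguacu
miR-451a lies at chr11:78073186-78073207, miR-144-5p at chr11:78073010-78073032 and miR-144-3p at chr11:78073047-78073066, all on the plus strand. Among 1738 mature products in the table, no other gene had the seed of any of these. With bases 2 to 7 alone, miR-144-3p shared its letters with 1 other gene, Mir101a. In the hairpins, capitals mark the annotated mature product.
Mir451a hairpin: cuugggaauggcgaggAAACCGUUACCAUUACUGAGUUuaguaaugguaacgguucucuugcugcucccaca
Mir144 hairpin: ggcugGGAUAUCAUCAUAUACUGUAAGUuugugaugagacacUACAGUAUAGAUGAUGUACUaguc
Folded with RNAfold, the Mir451a hairpin of 72 bases formed 30 base pairs with a loop of 4 bases and a minimum free energy of -43.3 kcal/mol. Its single mature product took bases 17 to 38, with 17 bases paired on the 5′ side of the stem and 4 in the loop. The Mir144 hairpin of 66 bases formed 27 pairs with a loop of 6 bases and an energy of -28.6 kcal/mol, and its products took 1 arm each and left the loop free. The tables count whole hairpins, so the arms of Mir144 cannot be read apart.

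The Mir144 gene (ENSMUSG00000065401.1) lies at chr11:78073005-78073070 and Mir451a (ENSMUSG00000070065.1) at chr11:78073170-78073241 on mm10, both on the plus strand, with 99 bases between them. Neither lies within a gene other than a microRNA gene. The nearest gene that is not a microRNA gene was Eral1, a ribosome assembly GTPase gene of mitochondria, which ends 134 bases beyond Mir451a on the minus strand. Mir451b, an annotated microRNA gene, covers exactly the bases of Mir451a on the minus strand. Mir486 (ENSMUSG00000070084.3) lies at chr8:23142555-23142682 on the plus strand, in an intron of Ank1 and opposite an intron of the antisense gene Gm15816, and Mir3107, which RefSeq also lists as mir-486b, overlaps it on the minus strand.

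**Figure D1:**
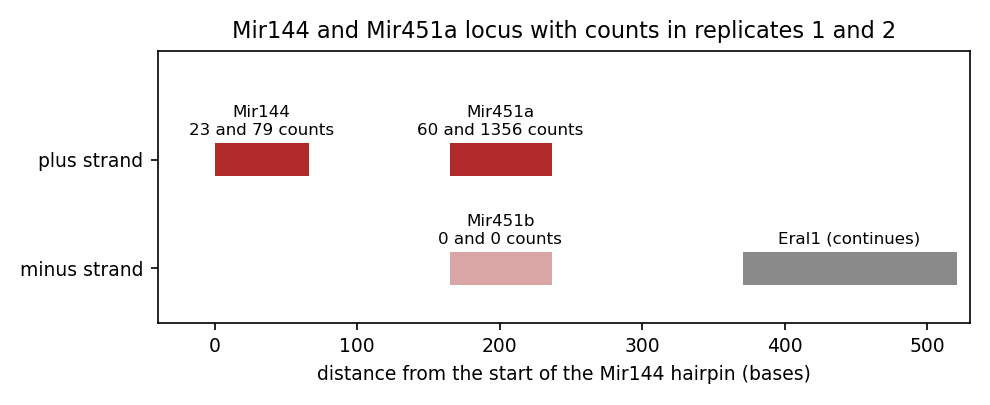
Map of the Mir144 and Mir451a locus, with distance in bases from the start of the Mir144 hairpin on the horizontal axis and the strand on the vertical axis. Bars are annotated genes with their counts on the annotated strand in replicates 1 and 2; Mir451a had 60 and 1356 counts, Mir144 had 23 and 79, and Mir451b had none.

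Depth limits what such scarce genes can show. Replicate 1 held 3555469 counts on the annotated strand of microRNA genes and replicate 2 held 2761003, so that 1 CPM, the count scaled to the same total in each library, is worth 3.56 and 2.76 reads. A gene with no read may still have up to 3 counts, which is 0.844 CPM in replicate 1 and 1.09 CPM in replicate 2. Reads mapped to several places, which no gene received, made up 45.8% and 41.0% of all reads, and unmapped reads 19.3% and 25.6%. The cortex label had its markers, with 7.31% to 9.47% of counts on 18 neuron-enriched microRNAs, led by Mir139 and Mir149 and each of them with reads. Named after the values were seen, Mir124a-1, Mir124a-2 and Mir124a-3 on that list had only 0.724 to 3.62 CPM. These copies share sequence with one another, so their counts are uncertain and may leave out reads. Intervals are at 95% and cover counting error only, since amplified reads are not independent molecules.

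Mir451a had 60 counts in replicate 1, or 16.9 CPM (Wilson interval 13.1 to 21.7). In replicate 2 it had 1356 counts, or 491 CPM (466 to 518). Its level was thus far apart in the 2 libraries, with a mean of 254 ± 335 CPM (SD, n = 2) that describes neither. In mice this microRNA is known to lower Ywhaz and so to guard red cells against oxidative damage.

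Mir144, the first gene of the pair, had 23 counts in replicate 1, or 6.47 CPM (4.31 to 9.71), and 79 in replicate 2, or 28.6 CPM (23.0 to 35.7). It was higher in the same library as Mir451a, and the intervals of the libraries did not overlap (17.5 ± 15.7 CPM, SD, n = 2). miR-144 is known in human red cell precursors as a regulator of NFE2L2, the factor of the antioxidant response.

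Mir486 had 131 counts in replicate 1, or 36.8 CPM (31.1 to 43.7), and 84 in replicate 2, or 30.4 CPM (24.6 to 37.7). Its intervals overlapped, and it had the smallest spread of the 3 genes, with 33.6 ± 4.54 CPM (SD, n = 2).

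The order of the genes differed between the libraries. By count in replicate 1, Mir486 was highest and Mir144 lowest, and the 3 intervals did not overlap. Mir451a was highest by far in replicate 2, while Mir144 and Mir486 had overlapping intervals there. Among all 2202 genes, Mir451a stood at rank 305 by count in replicate 1 and 134 in replicate 2, Mir144 at 374 and 272, and Mir486 at 264 and 270. Per base of hairpin, Mir451a had 0.833 counts in replicate 1 and 18.8 in replicate 2. Mir144 had 0.348 and 1.20 counts per base, and Mir486 had 1.02 and 0.656. On that scale Mir144 stood above Mir486 in replicate 2, although its count was slightly lower. That order follows from the annotated hairpin lengths, 66 bases for Mir144 and 128 for Mir486, while small RNA reads span mature products rather than hairpins.

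**Figure D2:**
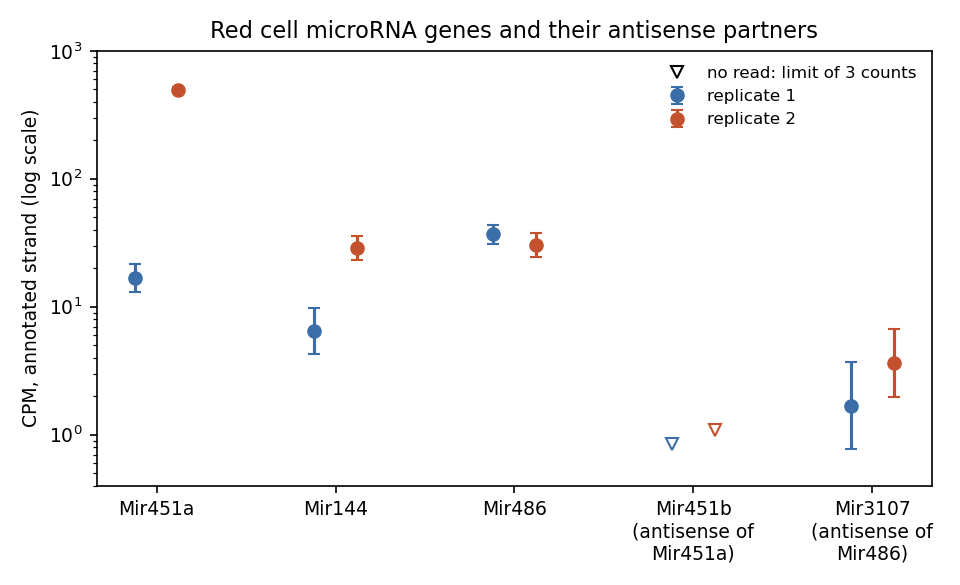
Levels of the 3 red cell microRNA genes and of the genes opposite them, in CPM on a log axis. Points are libraries with Wilson 95% intervals, and open triangles mark the limit of 3 counts where there was no read; Mir451a stood at 16.9 CPM in replicate 1 and 491 CPM in replicate 2, while Mir486 stood at 36.8 and 30.4 CPM.

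The antisense partners had few reads or none. Mir451b had no read in either library beside the 60 and 1356 of Mir451a. The longest run of bases shared by the hairpins of Mir451a and Mir451b was 16 bases, and none of the 55 windows of 18 bases in Mir451a recurred in another counted hairpin. Of the 49 such windows in Mir144 likewise none recurred.

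Mir3107 had 6 counts in replicate 1 and 10 in replicate 2, or 1.69 CPM (0.773 to 3.68) and 3.62 CPM (1.97 to 6.67). Mir486 shared a longer run with its partner. Of the 111 windows of 18 bases in Mir486, 10 recurred in Mir3107, and the longest shared run was 22 bases, at bases 33 to 54 of the Mir486 hairpin. A read that lies wholly within that run matches both strands of the locus and falls among reads mapped to several places. The counts of Mir486 and Mir3107 are therefore uncertain and may leave out few or many reads. The run is as long as the mature product of Mir451a, which has 22 bases. No mature sequence of Mir486 was matched, so whether the run is its main product was not tested. Every value of Mir486 given here carries that limit.

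Ratios of counts within a library do not depend on how libraries are scaled. Mir451a had 2.61 counts for each count of Mir144 in replicate 1 (exact Clopper-Pearson interval 1.59 to 4.42) and 17.2 in replicate 2 (13.7 to 21.8). The genes lie side by side, yet their ratio was 6.58-fold higher in replicate 2 (exact conditional interval 3.67 to 11.4). Per count of Mir486, Mir451a had 0.458 counts in replicate 1 (0.332 to 0.626) and 16.1 in replicate 2 (12.9 to 20.4). Mir144 had 0.176 counts per count of Mir486 in replicate 1 (0.108 to 0.275) and 0.940 in replicate 2 (0.683 to 1.29), which was 5.36-fold higher (3.04 to 9.61). In none of these 3 ratios did the intervals of the libraries overlap.

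**Figure D3:**
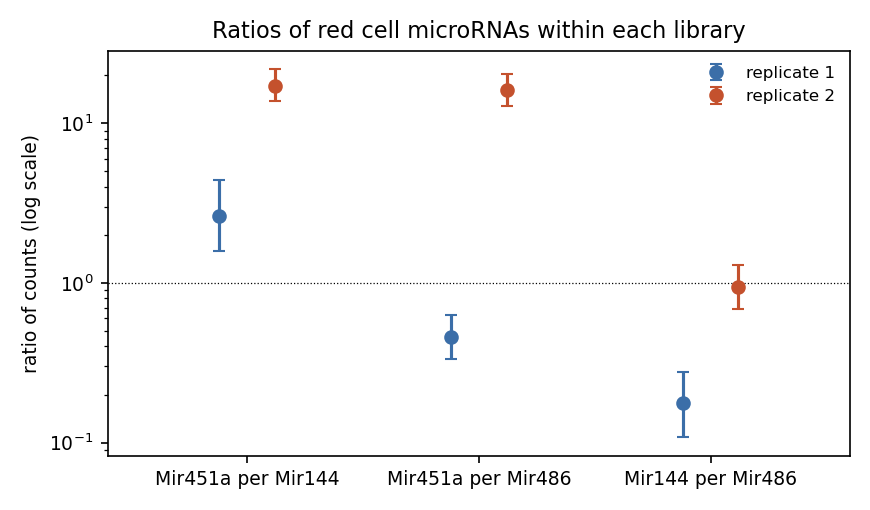
Ratios of counts between the red cell microRNAs within each library, on a log axis, with exact 95% counting intervals and a dotted line at equal counts. Mir451a per Mir144 was 2.61 in replicate 1 and 17.2 in replicate 2, and all 3 ratios were higher in replicate 2 with intervals that did not overlap.

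With libraries scaled by trimmed means of log ratios (TMM), Mir451a was 29.5-fold higher in replicate 2, a log2 ratio of 4.88 with a counting interval of 4.52 to 5.29. Mir144 was 4.44-fold higher there (log2 ratio 2.15, 1.49 to 2.91). The log2 ratio of Mir486 was -0.24, and its interval of -0.66 to 0.16 held both directions. Of the 3 genes, 2 were at least 2-fold higher in replicate 2, against 5.19% of the 308 genes whose counts summed to 100 or more, and 0 were at least 2-fold higher in replicate 1, against 11.0%. The median of the 3 was 2.15, beside -0.05 for the 308 genes, whose log2 ratios had an SD of 1.01. In the order of these ratios from the top, Mir451a was number 1, Mir144 number 4 and Mir486 number 205. Mir144 passed the minimum narrowly, with a summed count of 102, of which 79 were in replicate 2. Its place in this comparison thus rests on the library where it was higher.

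Other genes with a like ratio were found by the smallest gap in log2 ratio, over only 2 libraries. Nearest to Mir451a was Gm23935, with 50 counts in replicate 1 and 652 in replicate 2 and a log2 ratio of 4.09 (3.68 to 4.54). This gene shares an 18-base window with 5 other counted hairpins, and its counts are uncertain. Mir185 followed with 487 and 3455 counts and a log2 ratio of 3.22 (3.08 to 3.36). It shared no such window. Mir3074-1 came next for Mir451a and was nearest to Mir144, with 28 and 86 counts (log2 ratio 2.00, 1.38 to 2.68). It overlaps Mir24-1 on the other strand and has a copy in Mir3074-2. Next to Mir144 were Mir592 (log2 ratio 1.71) and Mir153 (1.61), the latter known from neurons. Around Mir486, where many genes lie, Mir434, Mir129-1 and Mir300 had log2 ratios of -0.24, -0.24 and -0.25.

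**Figure D4:**
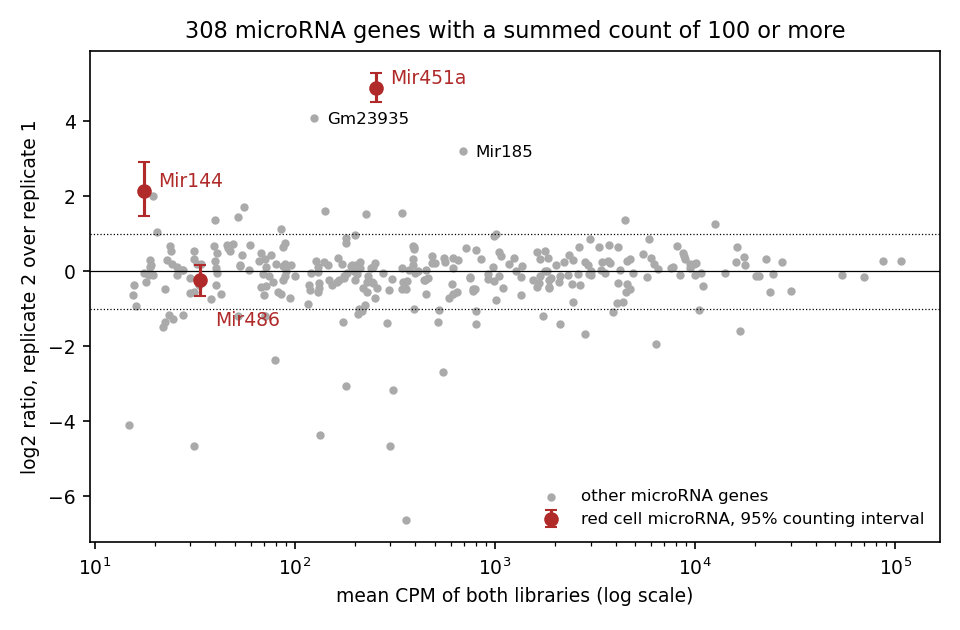
Log2 ratio of replicate 2 over replicate 1 against mean CPM (log axis) for 308 genes whose counts summed to 100 or more, with dotted lines at 2-fold. Red points are the red cell microRNAs with 95% counting intervals; Mir451a lies at 4.88 at the top, Mir144 at 2.15 and Mir486 at -0.24 among most other genes.

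Together the 3 genes held 0.00602% of counts in replicate 1 (Wilson interval 0.00526 to 0.00688) and 0.0550% in replicate 2 (0.0523 to 0.0579), or 0.0305% ± 0.0346 (SD, n = 2). Nearly all of the gap came from 1 gene. Without Mir451a, the shares were 0.00433% (0.00370 to 0.00507) and 0.00590% (0.00506 to 0.00688), which is 1.36-fold higher in replicate 2. In bulk tissue, fewer cells of a type and less RNA per cell cannot be told apart.

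Other microRNAs that red cells hold in quantity are made by many other cells as well. The 9 genes Mir16-1, Mir16-2, Mir15a, Mir15b, Mir92-1, Mir92-2, Mir25, Mir363 and Mir107 held 0.933% of counts in replicate 1 and 1.08% in replicate 2, and 1 of 9 differed by 2-fold or more, against 16.2% of the 308 genes. That gene was Mir16-1, with a log2 ratio of 1.01 (0.94 to 1.09) that lay at 0.98 when scaled by library size and at 0.85 when scaled by all reads. The log2 ratios of all 9 ran from -0.55 to 1.01 around a median of -0.10, below those of Mir451a and Mir144. Mir107, the most abundant of them, had 2866 CPM in replicate 1 and 4593 CPM in replicate 2. Mir92-1 had 2158 and 1559 CPM. Mir16-1, Mir16-2, Mir92-1, Mir92-2 and Mir107 share an 18-base window with a copy or relative elsewhere, so their counts are uncertain.

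Markers of the other cells that blood and its vessels hold were read beside the red cell genes. All 7 microglia and leukocyte genes had reads and held 0.863% of counts in replicate 1 and 0.918% in replicate 2. They were led by Mir342 (7522 and 7994 CPM) and Mir146 (591 and 714 CPM). Mir146 shares an 18-base window with Mir146b, so the counts of both are uncertain. Mir342 alone gave 26746 of the 30685 counts of the list in replicate 1 and 22072 of 25347 in replicate 2. The share of the list is thus mostly that of 1 gene. Named for their role after the values were seen, Mir142, found across blood cells, had 30.7 CPM in replicate 1 and 48.2 CPM in replicate 2. Mir223 of myeloid cells had 21.1 and 10.9 CPM, and Mir150 of mature lymphocytes had 397 and 326 CPM. The white cell markers thus lay in both directions.

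Endothelial and mural genes held 1.63% of counts in replicate 1 and 2.38% in replicate 2, with 4 of 5 genes read and Mir126b at 0. Mir126a of endothelium had 12842 and 19723 CPM, and Mir143 of mural cells had 3337 and 3994 CPM. Set against Mir126a, the ratio of Mir451a was 19.0-fold higher in replicate 2 (14.6 to 25.0) and that of Mir144 2.88-fold (1.79 to 4.80), whereas that of Mir486 was 1.86-fold higher in replicate 1. Mir451a and Mir144 thus stood higher in replicate 2 beside the endothelial gene too.

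Genes of other tissues were read as well. The 7 epithelial genes held 0.248% of counts in replicate 1 and 0.0361% in replicate 2. All 7 had reads, with Mir203 at 531 and 259 CPM and Mir200b at 711 and 6.88 CPM. Of these genes, 6 had a summed count of 100 or more. All 6 were at least 2-fold higher in replicate 1, against 11.0% of the 308 genes. Mir203 was only just past that limit, with a log2 ratio of -1.01 and an interval of -1.14 to -0.88. Mir200b was 98.7-fold higher in replicate 1, a wider gap than the 29.5-fold of Mir451a in replicate 2. The 7 choroid plexus and ciliated cell genes, all with reads, held 0.523% and 0.279%, led by Mir449a and Mir204. Liver genes held 0.0121% and 0.0118%, with 3 of 4 read and Mir194-1 at 0, led by Mir122 (63.3 and 78.6 CPM) and Mir194-2 (47.8 and 28.3 CPM). Mir194-1 and Mir194-2 share an 18-base window, so the counts of both are uncertain and may leave out reads. The library with more Mir451a thus had less of the epithelial and choroid plexus genes, and the part of these genes in the red cell values was not tested.

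**Figure D5:**
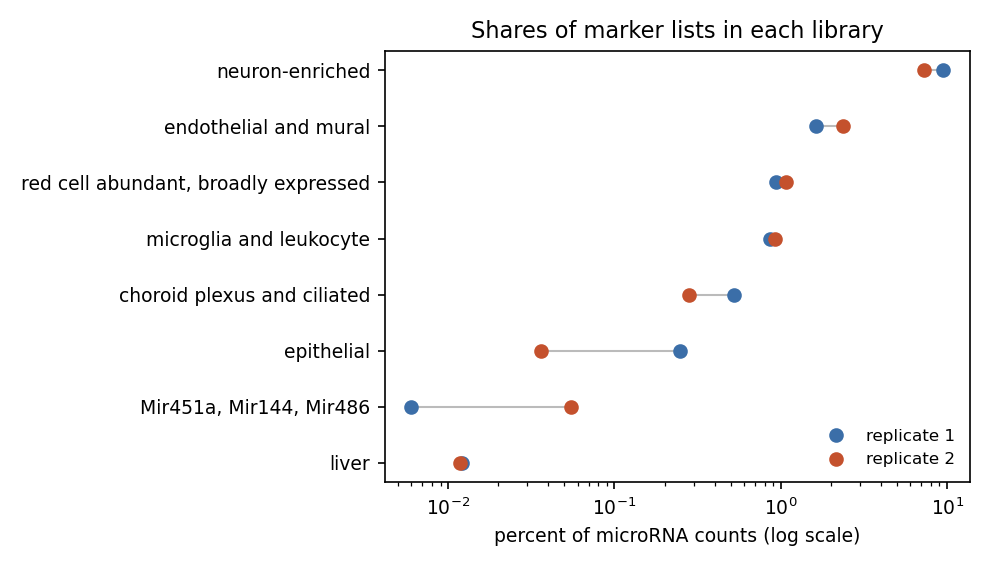
Percent of microRNA counts (log axis) held by each marker list in replicate 1 and replicate 2, with a line joining the libraries. The 3 red cell genes lie at 0.00602% and 0.0550%, and the epithelial genes lie at 0.248% and 0.0361%. The libraries lie close together for the liver list and for the leukocyte list, most of whose counts were of Mir342.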

How the data were processed

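Small RNA counts came from 2 libraries of 1 group. The deposited tables hold whole-number read counts per microRNA gene on mm10 with annotation M21, which the authors name in the notes beside each table. They have no header, and their value columns were read from layout and values as either strand, annotated strand and opposite strand. The aligner, counter, trimming and filters are not given in the sources used here. Small RNA reads span whole mature products, so CPM, computed here from the deposited annotated-strand counts over 2202 genes, was not divided by length unless stated.

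All gene IDs matched M21. TMM factors (edgeR 4.0.16) and RLE factors (DESeq2 1.42.0) used 408 genes kept by edgeR's filter on low counts. Log2 ratios added 0.5 to each count. Intervals came from scipy 1.17.1 and folds from ViennaRNA 2.7.2. Hairpins were compared in windows of 18 bases of M21 transcripts. The ratio step was tested on simulated data with counting error only, so that test does not cover amplification or spread between animals.

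Members and lists (62 symbols in 8 lists, 61 matched by symbol, all but Mir486b) were chosen with earlier results of these data known. Mir3107, which RefSeq also lists as mir-486b, was counted but was not part of the red cell list. The text names the 3 genes, microRNA genes within 10 kb, the 3 genes nearest to each in log2 ratio, the top 2 of each list, and genes it marks as chosen later. Nothing beyond the labels says how the animals were sampled, so the spread may be partly technical. CAST variants were not tested for their effect on mapping.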

Additional observations from a re-analysis of the deposited data

Results flagged for a closer look

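The column of opposite-strand reads was not used for the values above. It was read here only for the red cell genes and the genes opposite them, of which 3 had more than 3 counts in it. Each of these counts equals the annotated-strand count of the gene opposite, so the column adds no further reads for these genes. Mir486 had 6 such reads in replicate 1 and 10 in replicate 2, equal to the counts of Mir3107 on its own strand. Mir3107 had 131 and 84 opposite-strand reads, the counts of Mir486. Mir451b had 60 and 1356, the counts of Mir451a.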

How the results depend on the processing

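Log2 ratios of Mir451a, Mir144 and Mir486 kept their direction and stayed within their counting intervals in all 16 recomputed values, which used RLE factors, library size, all reads, pseudocounts of 1 and 5 or, for Mir144, either strand. They ran from 4.72 to 4.93 for Mir451a, 1.98 to 2.20 for Mir144 and -0.40 to -0.20 for Mir486. Scaling to all reads moved the median of the 308 genes from -0.05 to -0.20, and Mir16-1 from 1.01 to 0.85, outside its counting interval and below 2-fold. Levels without a replicate ranged from 16.9 to 491 CPM for Mir451a, 6.47 to 28.6 for Mir144 and 30.4 to 36.8 for Mir486, and the red cell share from 0.00602% to 0.0550%. Scaled to all reads of a library in place of microRNA counts, all levels were lower, since the denominator is larger by construction: Mir451a had 70.8 CPM, Mir144 4.96 and Mir486 9.83, and the red cell share was 0.00856%. Counted without strand, reads over antisense genes are ambiguous: Mir451a and Mir486 then had 0 CPM, Mir451a per Mir144 was 0 in both libraries, and ratios per Mir486 had no value. Mir126a overlaps Mir126b and has the same limit. Without strand, Mir144 per Mir126a in replicate 1 moved from 0.000504 to 5.75, and the mean endothelial and mural share from 2.01% to 0.403%. Genes at least 2-fold higher in replicate 2 numbered 39 of 440 with a minimum summed count of 20 and 170 of 795 with 1 read or more, against 16 of 308. In replicate 1 they numbered 144 with 1 read or more, against 34. No paired analysis was possible because there is 1 group. Counts under 100 for Mir144 in both libraries, Mir451a in replicate 1 and Mir486 in replicate 2 limit the precision of those values.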
